A study of Mus musculus with 6 samples.

Results

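Tendon and small leucine-rich matrix genes are described here in 2 mouse skeletal muscles. The set comprised 10 genes, Thbs4, Tnmd, Fmod, Comp, Chad, Kera, Tnc, Dcn, Lum and Bgn, and was taken as every probe set on the array whose single annotated gene symbol was one of these. This gave 17 probe sets of 22626, and 10 genes of 12393 with a single symbol. Fmod was read by 6 probe sets, Bgn by 3 and each of the others by 1. The superficial masseter, which raises the lower jaw (3 samples), was compared with the tibialis anterior, a muscle of the lower hind limb (3 samples). All samples came from normal adult female C57Bl/6 mice 6 months old, without any transgene or treatment named in the labels, and each sample was hybridised to 1 Affymetrix Mouse 430 2A array. The comparison asked which genes distinguish masticatory from limb muscle.

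Tendon is made of parallel collagen fibrils laid down by tendon cells, and it joins muscle fibres at the myotendinous junction. Small leucine-rich proteoglycans are short secreted proteins built of leucine-rich repeats, most of which carry glycosaminoglycan chains, and they bind collagen and govern how fibrils assemble and how thick they grow. Thrombospondins and tenascins are large, many-armed glycoproteins that link collagen, other matrix proteins and cell-surface receptors. A whole muscle holds these transcripts through its tendon ends, aponeuroses and the connective tissue around its fibres and bundles.

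In the masseter, 1 of the 10 genes differed past the threshold. Thbs4 was 3.15-fold lower there than in the tibialis anterior. Kera was higher in the masseter on every array, with an adjusted p of 0.0626 that did not pass. On their brightest probe sets, the abundant proteoglycan genes Dcn, Lum and Fmod had mean signals within 1.21-fold between the muscles. Another Fmod probe set differed 1.49-fold. Each difference is the log2 signal of the masseter minus that of the tibialis anterior, with limma's SE and n = 3 arrays per muscle. The adjusted p is limma's, with Benjamini-Hochberg adjustment over 13576 probe sets and a threshold of 0.05. A probe set entered that fit when its log2 signal, averaged over the 6 arrays, was at least 4.84, a signal of 28.6. Of the 17 probe sets, 16 did, representing 9 genes, and the Chad probe set did not. Of these 16, 0 were called higher in the masseter, 1 was called lower and 15 were not called, where 0.56% and 0.619% of all probe sets tested were called higher and lower, 1.18% in all. At an unadjusted p under 0.05 there were 5 of 16, against 13.1% of all probe sets. Whether the 3 samples of each muscle are separate animals is not stated in the labels. The p-values measure the spread left between these samples once differences shared by same-numbered samples are taken out. That spread may be technical. In whole muscle, fewer cells of a type and less RNA per cell cannot be told apart.

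**Figure D1:**
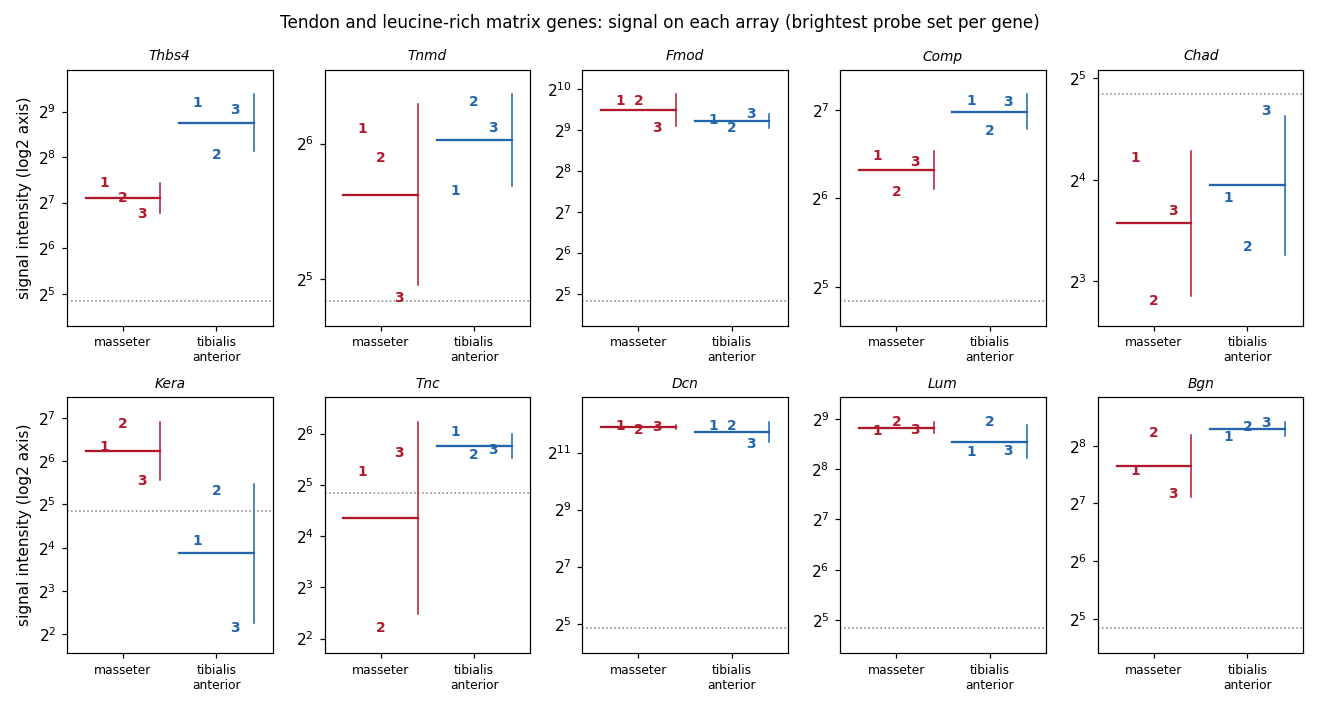
Signal intensity (log2 axis) of the brightest probe set of each of the 10 genes, with the masseter at the left and the tibialis anterior at the right of each panel. Digits are the sample numbers, the horizontal line is the mean of the 3 log2 signals, the vertical line is ± 1 SD and the dotted line is the filter level of 28.6; the groups do not overlap for Thbs4, Comp and Kera.

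The muscles were skeletal muscle by their defining genes. All 12 fibre genes examined, among them Acta1 and Ckm, passed the filter, with summed signals of 127477 to 157325 in the masseter and 162072 to 165293 in the tibialis anterior. Of the 12, 1 was called, Myh4, the fast IIb myosin heavy chain, which was lower in the masseter (-1.47 ± 0.14, adjusted p = 0.00265). That call held in 15 of 17 alternative analyses. It was lost when limma's eBayes step was run without its trend (adjusted p = 0.155) and with paired SAM (adjusted p = 0.0603). The Gapdh control, whose ratio of 3' to 5' signal is a measure of RNA integrity, averaged 2.66 ± 0.23 on the masseter arrays and 1.94 ± 0.11 on the tibialis arrays (SD, n = 3 each; two-sided exact permutation p = 0.1, the smallest these group sizes allow). The Actb control averaged 2.96 ± 0.34 on the masseter arrays and 2.70 ± 0.11 on the tibialis arrays (SD, n = 3 each; exact permutation p = 0.3). Salivary gland markers had summed signals of 3103 to 51664 in the masseter and 2352 to 4436 in the tibialis anterior over 9 genes, highest in masseter 1. Smr2 had the highest signal of the 9 in masseter 3 and in all 3 tibialis samples, and it leaned the other way. Its signals were 1010.4, 1185.4 and 2123.3 in the masseter, against 2548.0, 2063.0 and 1848.5 in the tibialis anterior. The difference was -0.64 ± 0.25 (SE, adjusted p = 0.327), and Smr2 was singled out after its values were seen. Of the 7 salivary genes that passed the filter, 3 were called higher in the masseter and 0 lower. These 3 were higher in the masseter in all 3 numbered pairs. The masseter mean of Chia1, a chitinase, was 15.6 times the filter level (adjusted p of the difference = 0.00455). For Pip, a secreted salivary protein, it was 16.7 times that level (adjusted p of the difference = 0.0113). The tibialis means of both genes lay below the level. Smr3a, a salivary secretory protein, had a difference of 3.14 ± 0.50 (SE; adjusted p = 0.0266). Signals of Smr3a were 10655.6, 487.6 and 42.1 in the masseter, against 376.1, 58.7 and 14.5 in the tibialis anterior, so the groups overlapped. Without the block, 0 of the 3 passed (adjusted p of 0.302 to 0.529), and without masseter 1 as well the Smr3a difference was 1.07 (adjusted p = 0.818). The part of RNA integrity and of salivary tissue in the results below was not tested.

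Thbs4 encodes thrombospondin 4, a secreted glycoprotein of tendon and of the matrix around muscle fibres that helps attach muscle to tendon. Its signals were 172.2, 138.4 and 108.3 in masseter 1, 2 and 3, against 579.8, 262.9 and 527.1 in tibialis anterior 1, 2 and 3. Every masseter array lay below every tibialis array, and tibialis anterior 2 was the lowest of its group by a wide margin. The mean signal was 137 in the masseter, against 432 in the tibialis anterior. The difference was -1.65 ± 0.25 (SE; 95% interval -2.23 to -1.07; adjusted p = 0.025), and it was negative in all 3 numbered pairs, at -1.75, -0.93 and -2.28. The call was lost when eBayes was run without its trend (adjusted p = 0.235), with paired SAM, the test that the study names (adjusted p = 0.0863), and without replicate 3 (adjusted p = 0.0598). In fits without the block it also ended when masseter 1, 2 or 3 or tibialis anterior 1 or 3 was left out (adjusted p = 0.0555, 0.13, 0.102, 0.138 and 0.13), with differences between -1.44 and -1.82.

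Upstream sequence was at hand for 7 of the 10 genes. It is shown for Thbs4, the gene that passed, for Bgn, whose 3 probe sets all leaned to the tibialis anterior, and for Fmod, whose brightest probe set did not pass. Each run holds the 250 bases before the RefSeq transcription start in GRCm38.p6, 5′ to 3′ on the strand of the gene. Thbs4 lies at chr13:92794819-92795068 on the minus strand, Bgn at chrX:73483351-73483600 and Fmod at chr1:134037004-134037253, both on the plus strand. Capitals mark E-boxes (CANNTG, searched on both strands), the motif bound by basic helix-loop-helix factors, of which the tendon factor Scleraxis is one.
Thbs4: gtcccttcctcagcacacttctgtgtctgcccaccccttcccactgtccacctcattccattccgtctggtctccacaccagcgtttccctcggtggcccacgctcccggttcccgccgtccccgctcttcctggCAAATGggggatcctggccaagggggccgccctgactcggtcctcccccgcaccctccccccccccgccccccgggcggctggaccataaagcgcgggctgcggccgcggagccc
Bgn: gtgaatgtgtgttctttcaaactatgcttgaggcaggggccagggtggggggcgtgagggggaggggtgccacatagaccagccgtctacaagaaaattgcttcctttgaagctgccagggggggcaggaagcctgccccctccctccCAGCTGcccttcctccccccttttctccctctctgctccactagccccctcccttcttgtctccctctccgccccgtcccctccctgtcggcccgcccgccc
Fmod: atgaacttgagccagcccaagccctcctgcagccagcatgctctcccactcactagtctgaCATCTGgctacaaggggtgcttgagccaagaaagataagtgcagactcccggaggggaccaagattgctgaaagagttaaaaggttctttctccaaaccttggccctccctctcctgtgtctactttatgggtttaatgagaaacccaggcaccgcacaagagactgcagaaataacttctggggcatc
Each of these windows held 1 E-box and 0 matches of the TATA box (TATAAA, both strands). Over all 32851 RefSeq windows of this length, 66.2% held an E-box and 12.4% held TATAAA. The windows of the other 4 genes are not shown. Those of Kera and Tnmd held 0 E-boxes and 0 TATAAA, that of Chad held 1 of each, and both windows of Tnc held 1 TATAAA, with 3 E-boxes in one and 2 in the other. Most of the Kera window lies inside the RefSeq gene record.

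Comp encodes cartilage oligomeric matrix protein, a relative of Thbs4 in the thrombospondin family that binds collagen in tendon and cartilage. Its signals were 89.0, 67.4 and 85.2 in the masseter, against 137.2, 108.3 and 135.8 in the tibialis anterior. The groups did not overlap, and the pair differences were close to each other, at -0.62, -0.68 and -0.67. The difference was -0.66 ± 0.20 (SE; 95% interval -1.11 to -0.21), with an adjusted p of 0.192, and it did not pass in any of 18 alternatives. Its spread was small in both muscles, with an SD on the log2 scale of 0.22 in the masseter, against 0.19 in the tibialis anterior.

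Tnc encodes tenascin C, a glycoprotein of the myotendinous junction and of loaded or healing tendon. Its signals were 38.0, 4.6 and 49.2 in the masseter, against 65.1, 48.0 and 51.1 in the tibialis anterior. Masseter 2 stood far below the other 5 arrays, and masseter 3 lay above tibialis anterior 2, so the groups overlapped. The difference of -1.40 ± 0.63 (SE) had an adjusted p of 0.397, and without masseter 2, in a fit without the block, it was -0.33 (adjusted p = 0.817). The probe set passed the filter through the tibialis anterior, since the masseter mean of 20.5 lay under the filter level. Tnmd encodes tenomodulin, a membrane protein that marks tendon cells. It had signals of 69.0, 59.6 and 29.1 in the masseter and 50.2, 79.1 and 69.5 in the tibialis anterior. The groups overlapped, the pair differences went in both directions (0.46, -0.41 and -1.26), and the difference was -0.40 ± 0.36 (SE; 95% interval -1.22 to 0.42; adjusted p = 0.706). Chad encodes chondroadherin, a leucine-rich protein of cartilage. Its signals of 18.6, 7.0 and 12.9 in the masseter, against 14.1, 10.1 and 25.6 in the tibialis anterior, all lay under the filter level, where ratios are imprecise, and it was not tested.

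Kera encodes keratocan, a keratan sulphate proteoglycan best known from the cornea, where it keeps collagen fibrils evenly spaced, and also present in tendon. Its signals were 80.9, 116.4 and 46.4 in the masseter, against 17.9, 39.5 and 4.4 in the tibialis anterior. Every masseter array lay above every tibialis array, and tibialis anterior 1 and 3 lay under the filter level. The masseter mean of 75.9 was 2.65 times the filter level, and the tibialis mean of 14.6 lay below that level. The fitted difference was 2.38 ± 0.47 (SE; 95% interval 1.29 to 3.46), positive in all 3 pairs at 2.18, 1.56 and 3.40, and its adjusted p of 0.0626 did not pass. The probe set entered the fit through its masseter signals. The difference was 1.51 without tibialis anterior 3 and 3.10 without tibialis anterior 2, in fits without the block, with adjusted p-values of 0.301 and 0.113. It passed with 32 added to every signal (1.11, adjusted p = 0.0317), the only one of the 14 alternatives that kept the probe set in which it did.

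Dcn and Bgn encode decorin and biglycan, closely related proteoglycans with chondroitin or dermatan sulphate chains; decorin coats collagen fibrils and binds the growth factor TGF-beta. Dcn had signals of 3954.3, 3580.1 and 3853.3 in the masseter, against 3866.4, 3951.3 and 2553.3 in the tibialis anterior. The masseter arrays were tight, and tibialis anterior 3 alone was low. The difference was 0.16 ± 0.16 (SE; 95% interval -0.20 to 0.53; adjusted p = 0.743), so that the interval leaves out a difference as large as that of Thbs4 in either direction. Without tibialis anterior 3 the Dcn difference was -0.043.

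The brightest Bgn probe set had signals of 189.8, 297.4 and 142.6 in the masseter, against 283.4, 320.3 and 336.2 in the tibialis anterior. Masseter 2 reached into the range of the tibialis anterior. Its difference was -0.64 ± 0.23 (SE; adjusted p = 0.272). A second probe set had signals of 219.4, 247.7 and 179.2 in the masseter, against 250.5, 301.4 and 275.0 in the tibialis anterior, groups that did not overlap (-0.36 ± 0.17, adjusted p = 0.43). The remaining one spread more widely, from 102.7 to 253.0 in the masseter and from 146.7 to 266.0 in the tibialis anterior (-0.41 ± 0.36, adjusted p = 0.697). All 3 Bgn probe sets were thus negative and 0 passed.

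Lum and Fmod encode lumican and fibromodulin, keratan sulphate proteoglycans that bind overlapping sites on collagen. Lum had signals of 432.8, 491.6 and 438.6 in the masseter, against 324.7, 487.2 and 330.4 in the tibialis anterior. Tibialis anterior 2 reached the masseter range, and the difference was 0.28 ± 0.16 (SE; 95% interval -0.093 to 0.65; adjusted p = 0.537). The brightest Fmod probe set had signals of 837.5, 839.3 and 530.2 in the masseter, against 607.6, 532.8 and 676.6 in the tibialis anterior. Masseter 3 was the lowest of all 6 arrays, and the difference was 0.26 ± 0.21 (SE; 95% interval -0.22 to 0.73; adjusted p = 0.672).

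The 6 Fmod probe sets did not give 1 direction. Their differences ran from -0.15 to 0.58, 4 positive and 2 negative, and 0 of 6 passed. One of them had signals of 243.9, 247.1 and 172.6 in the masseter, against 159.4, 138.2 and 142.2 in the tibialis anterior, without overlap (0.58 ± 0.19, adjusted p = 0.233). In the array maker's naming, the ending x marks probe sets whose probes may also bind other transcripts. Of the 6 Fmod probe sets, 5 have it, among them the brightest and the probe set without overlap. The remaining Fmod probe set, without the x, had a difference of -0.051 ± 0.21 (SE, adjusted p = 0.95). Masseter 3 was the lowest masseter array for all 6 Fmod probe sets, as it was for Thbs4, Tnmd, Kera and the brightest Bgn probe set.

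Over the 16 probe sets in the fit, the groups did not overlap in 5, with 2 higher and 3 lower in the masseter, where 17.8% of all probe sets tested did not overlap, 9.21% higher and 8.63% lower. The 5 were those of Thbs4, Comp and Kera and 1 each of Bgn and Fmod. On the brightest probe set of each of the 9 genes, 1 was higher and 2 were lower without overlap. The 1 higher was Kera, which entered the fit through its masseter signals. By gene, 4 differences were above 0 and 5 below, with a median of -0.40. By probe set, the median was -0.098 over the 16, against 0.023 over all probe sets tested. The differences thus lay on both sides of 0, and the genes' profiles over the 6 arrays were unlike each other. The correlation of each gene with the mean profile of the 9 genes ran from -0.12 for Lum to 0.62 for Tnmd over these 6 arrays. The genes outside the set with the profile most like that mean were Ogfod2, Qk, Ctps, Pwp1 and Wdhd1, with Pearson correlations of 0.978, 0.973, 0.972, 0.969 and 0.969 over 6 arrays, and 72 of 8307 genes were above 0.9.

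**Figure D2:**
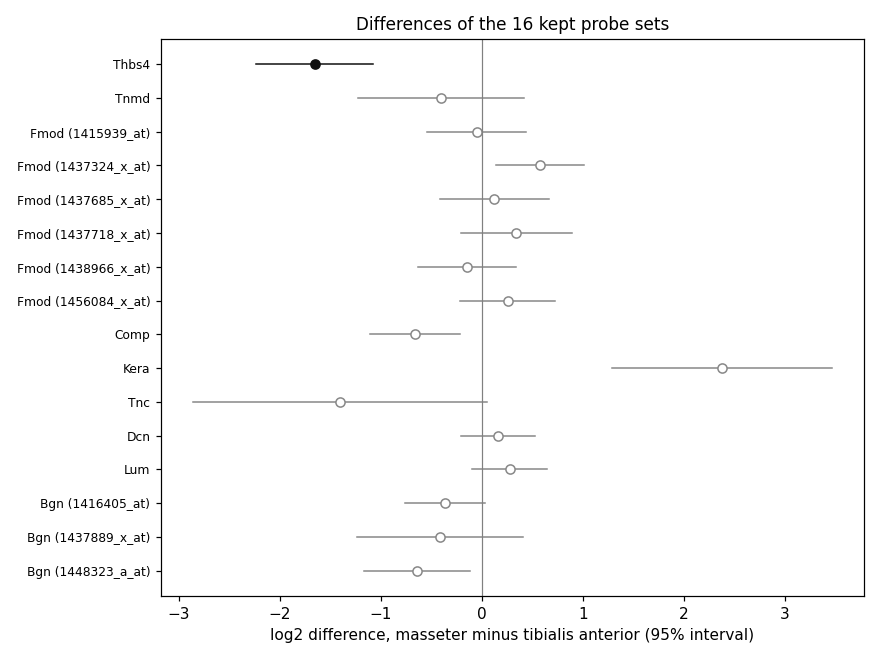
Log2 difference, masseter minus tibialis anterior (x axis), of the 16 probe sets in the fit, with limma's 95% interval. The filled point, Thbs4 at -1.65, passed the threshold, and open points did not. Kera is drawn at its fitted 2.38 and Tnc at its fitted -1.40. Neither is a measured size, since the tibialis anterior mean of Kera and the masseter mean of Tnc lay under the filter level. With signals under 16 set to 16, the fitted values were 1.76 for Kera and -0.81 for Tnc. With 32 added to every signal they were 1.11 for Kera and -0.54 for Tnc.

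Dcn, Lum and Kera lie side by side on mouse chromosome 10, followed by Epyc, with 0 other protein-coding genes between them in the RefSeq gene order. Epyc encodes epiphycan, a dermatan sulphate proteoglycan of cartilage, and was chosen here after its values were seen. Its signals were 27.0, 24.4 and 15.3 in the masseter, against 2.3, 0.6 and 13.4 in the tibialis anterior. Every masseter array lay above every tibialis array, but all 6 signals were under the filter level, so Epyc was not tested and no fold is given. Along the cluster, Dcn and Lum had differences of 0.16 and 0.28. Kera, whose tibialis mean lay under the filter level, had a masseter mean 2.65 times that level. Whether Kera differed more than its neighbours was not tested. Fmod lies next to Prelp and Optc on chromosome 1 in the same gene order.

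**Figure D3:**
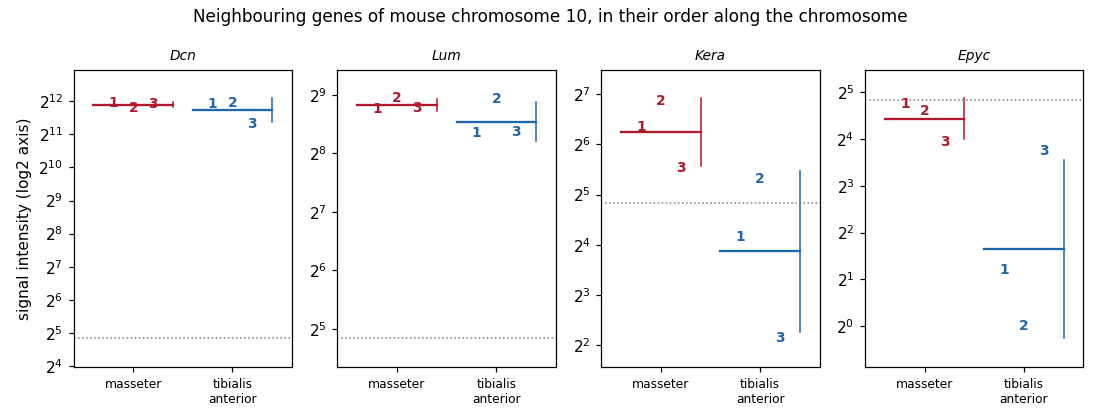
Signal intensity (log2 axis, signals under 1 drawn at 1) of Dcn, Lum, Kera and Epyc in their order along chromosome 10, with the masseter at the left and the tibialis anterior at the right of each panel. Digits are sample numbers, lines are means ± 1 SD of log2 signals and the dotted line is the filter level of 28.6; Epyc lies under it on all 6 arrays.

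The other small leucine-rich proteoglycans were read by 7 genes on the array, of which 4 passed the filter and 0 were called. Their median difference was 0.37. Prelp, a heparin-binding relative of fibromodulin, had a difference of 0.51 ± 0.20 (SE; adjusted p = 0.311) on its brighter probe set. The other Prelp probe set leaned the other way (-0.44), but lay under the filter level and was not tested. Omd, osteomodulin of mineralised tissue, had 0.56 ± 0.50 (adjusted p = 0.706). Ogn, osteoglycin, had 0.23 ± 0.19 on its brighter probe set (adjusted p = 0.685) and 0.74 ± 0.24 on the other (adjusted p = 0.229). Aspn, asporin, had -0.21 ± 0.22 on its brighter probe set (adjusted p = 0.769) and -0.29 ± 0.23 on the other (adjusted p = 0.669). Of the other thrombospondins and tenascins, 0 of 4 were called and the median was 0.36. No gene of these families other than Thbs4 passed the threshold.

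Collagen genes did not differ past the threshold, with 0 of 11 called and a median of 0.048. Col1a1 and Col1a2 encode the chains of type I collagen, the main fibril protein of tendon. The brighter Col1a1 probe set had signals of 57.8, 55.1 and 39.5 in the masseter, against 118.9, 67.0 and 217.1 in the tibialis anterior. The groups did not overlap, tibialis anterior 3 was the highest, and the difference of -1.26 ± 0.38 (SE) had an adjusted p of 0.2. The other Col1a1 probe set had overlapping groups and a mean under the filter level, and it was not tested. The brightest Col1a2 probe set had a difference of -0.017 ± 0.17 (adjusted p = 0.981) and the other had -0.61 ± 0.28 (adjusted p = 0.398). Of the genes for collagen maturation, 0 of 13 were called. The nearest to the threshold were Pcolce and Pcolce2, which speed the trimming of procollagen and were chosen here after their values were seen. Their differences on the brightest probe set were 1.09 ± 0.22 (SE, adjusted p = 0.0626) and 1.10 ± 0.21 (adjusted p = 0.0548). In both, the 3 masseter arrays lay above the 3 tibialis arrays. The other Pcolce probe set had a smaller difference, 0.60 ± 0.23 (adjusted p = 0.328).

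The remaining matrix lists held 0 of 8 glycosaminoglycan enzymes (median -0.078), 0 of 8 matrix receptors (median 0.058) and 0 of 10 matrix proteases and their inhibitors (median -0.18). Over all 8 matrix lists, limma and paired SAM each called 0 of 65 genes that passed the filter, where limma called 1.18% of all probe sets. Of the 65, 20 had an unadjusted p under 0.05, where 13.1% of all probe sets did. In limma, 3 genes were called without the block, a fit that called 1.02% of all probe sets. These were Pcolce, the receptor Tlr4 and the transcription factor Six2, all higher in the masseter and chosen after their values were seen. Their differences were 1.09, 1.52 and 1.44 (adjusted p = 0.0423, 0.0312 and 0.0498). In the fit with the block, the other Tlr4 probe set had 1.05 ± 0.36 (SE, adjusted p = 0.261). Of the tendon regulators, 0 of 7 were called. Scx, which encodes Scleraxis, had signals of 32.1, 19.0 and 15.7 in the masseter, against 36.3, 36.6 and 39.9 in the tibialis anterior. The groups did not overlap, where 8.63% of all probe sets tested were lower in the masseter without overlap. The Scx mean lay under the filter level, and it was not tested.

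**Figure D4:**
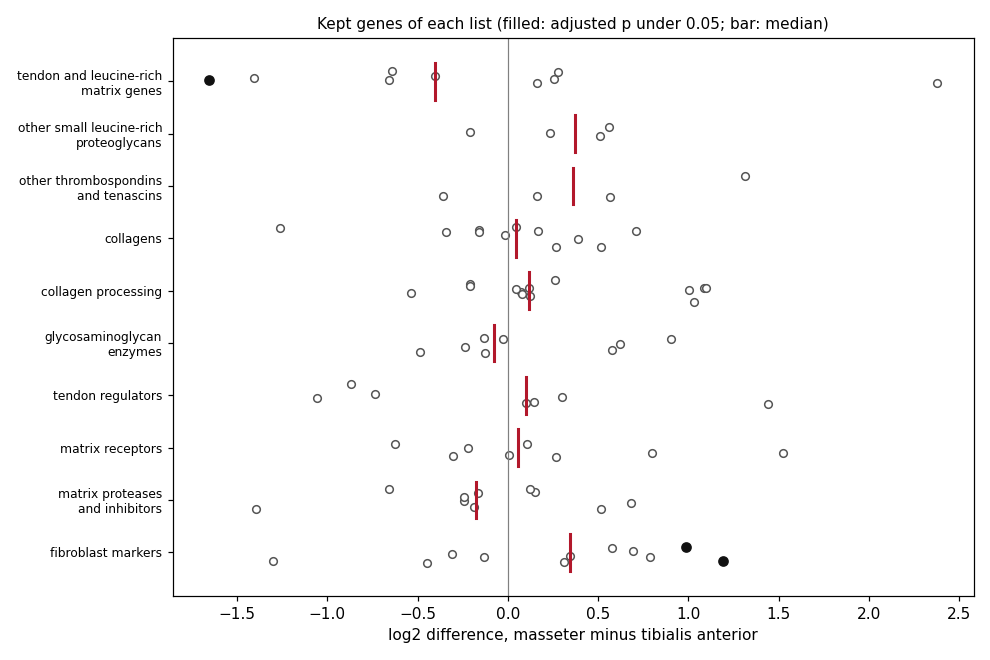
Log2 difference, masseter minus tibialis anterior (x axis), of the genes of each list that passed the filter, 1 brightest probe set a gene. Filled points passed the adjusted p threshold (Thbs4, and the fibroblast markers Dpt and Cd34), open points did not, and the bar is the median, -0.40 for the tendon and leucine-rich matrix genes and 0.34 for the fibroblast markers.

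Markers of other connective tissue cells went in both directions. Of the 11 fibroblast markers that passed the filter, 2 were called higher in the masseter and 0 lower, with a median of 0.34. Dpt, the collagen-binding protein dermatopontin, had signals of 937.9, 918.4 and 715.2 in the masseter, against 540.6, 288.9 and 330.3 in the tibialis anterior (1.19 ± 0.19, adjusted p = 0.0267). Cd34, a surface protein of fibroblast progenitors and of endothelium, had 291.4, 352.9 and 285.1 in the masseter, against 138.0, 159.1 and 170.5 in the tibialis anterior (0.99 ± 0.18, adjusted p = 0.0427). Both were higher in the muscle where Thbs4 was lower. The Dpt call held in 8 of 17 alternatives and the Cd34 call in 5. Both were lost when eBayes was run without its trend (adjusted p = 0.247 each). With paired SAM they were also lost (adjusted p = 0.116 for Dpt and 0.115 for Cd34), and Cd34 with quantile normalization (adjusted p = 0.0546). Without replicate 2 or 3 both were lost too (adjusted p = 0.104 and 0.0599 for Dpt, 0.233 and 0.06 for Cd34). The Cd34 call was also lost without replicate 1 (adjusted p = 0.0702). In fits without the block, both were lost without masseter 1, 2 or 3 or tibialis anterior 2 or 3 (adjusted p of 0.0651 to 0.181), and Cd34 without tibialis anterior 1 (adjusted p = 0.108). Postn, periostin of load-bearing matrix, was chosen after its values were seen and had a difference of -1.30 ± 0.33 (SE; adjusted p = 0.13). The summed signal of the 12 fibroblast markers on the array was 13478 to 17150 in the masseter and 9082 to 11273 in the tibialis anterior, most of it from Gsn, which muscle fibres also express and which was singled out after its values were seen.

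Cartilage and bone markers, which Comp, Chad and Epyc could accompany, were mostly under the filter level, and 0 were called. Of 11 cartilage markers on the array, 8 lay under the filter level on all 6 arrays, among them Col2a1. The summed signal of all 11 was 244 to 318 in the masseter and 233 to 276 in the tibialis anterior. Prg4, lubricin of joint and tendon surfaces, was above the filter level. Its signals were 196.9, 192.0 and 144.2 in the masseter, against 115.6, 106.7 and 129.0 in the tibialis anterior, without overlap (0.59 ± 0.21, adjusted p = 0.266). The brightest Col9a1 probe set went the other way without overlap (-0.53 ± 0.35, adjusted p = 0.587). Its signals were 33.8, 38.0 and 26.7 in the masseter, against 49.2, 46.5 and 45.5 in the tibialis anterior. Acan was lower in the masseter in all 3 numbered pairs, but its groups overlapped. Its mean lay under the filter level and it was not tested. Over 5 bone markers, the sums were 188 to 284 in the masseter and 136 to 183 in the tibialis anterior. Of these 5, 3 lay under the filter level throughout. The other two were Alpl, an alkaline phosphatase, and Sp7, a bone cell transcription factor. Alpl had signals of 100.2, 107.4 and 160.8 in the masseter, against 84.3, 52.4 and 93.3 in the tibialis anterior, without overlap (0.69 ± 0.23, adjusted p = 0.244). Sp7 had 74.5, 53.2 and 97.2 in the masseter, against 63.4, 59.4 and 55.4 in the tibialis anterior (0.29 ± 0.27, adjusted p = 0.725). Prg4, Col9a1, Acan, Alpl and Sp7 were chosen after their values were seen. Schwann cell and nerve markers summed to 1103 to 1166 in the masseter and 711 to 867 in the tibialis anterior over 6 genes, with 0 called. Adipocyte markers summed to 4195 to 6087 in the masseter and 3037 to 5024 in the tibialis anterior over 6 genes. Of the 4 that passed the filter, Adipoq was called higher in the masseter (1.26 ± 0.17, adjusted p = 0.0167), a call that was lost without the block (adjusted p = 0.228) and held in 8 of 17 alternatives; without masseter 1 and the block the difference was 0.80 (adjusted p = 0.411). Endothelial markers summed to 1271 to 1366 in the masseter and 1214 to 1607 in the tibialis anterior, and immune markers to 750 to 1092 in the masseter and 607 to 942 in the tibialis anterior, each over 8 genes with 0 called. The part of these cell types in the differences of Thbs4 and Kera was not tested.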

How the data were processed

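The deposited values are linear signal intensities of 22690 probe sets, made with MAS5 and GCOS, per the submitters' processing notes, at settings not given in the sources used here. The arrays were already on a common scale, with medians of 44.1 to 50.7. Their number limits the precision of every comparison. Signals under 1 were set to 1, converted to log2 and filtered at the 40th percentile of the mean over all 6 arrays after 64 controls were left out, which left 13576. Names came from the platform annotation, with gene identifiers checked against RefSeq (0 symbols changed). limma 3.58.1 in R 4.3.3 compared the muscles (lmFit and eBayes with trend, two-sided). The sample number of the titles was a block, since the study is described as making paired comparisons. The fit and paired SAM were tested on simulated data. A gene stands by its brightest probe set.

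The genes and the 17 other lists were chosen with earlier results of these data known. Named genes were all 10 members, up to 4 called genes of each list, Scx, Mkx (not analysed here), Col1a1, Col1a2, Aspn, Prelp, Ogn, Omd and the 5 genes most like the mean profile; others named with values were chosen after those were seen. Alternatives covered the block, trend, filter, normalization, floor, offset, test, probe sets and left-out arrays.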

Additional observations from a re-analysis of the deposited data

How the results depend on the processing

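The count of 160 probe sets past the threshold became 13 with eBayes without trend and 65 with paired SAM, and ran from 47 to 188 with 1 array or 1 numbered pair left out. No other alternative moved it by more than 1.5 times. Of the tendon and leucine-rich probe sets, 1 was called; there were 0 with eBayes without trend, 0 with paired SAM and 2 with 32 added to every signal, where Kera joined Thbs4, and between 0 and 1 with arrays left out. Thbs4 kept its direction in all 18 alternatives, from -1.34 to -2.02, and passed in 10. The matrix lists had 0 called genes, 3 without the block, 3 when filtered at the 60th percentile, 3 with signals under 16 set to 16, and 0 to 2 with arrays left out. With pairs or arrays left out, the Dcn difference ran from -0.055 (without replicate 3; -0.043 without tibialis anterior 3) to 0.31, and the Tnmd difference from -0.83 to 0.025 (without replicate 3). Kera and Tnc were under the filter in some alternatives and gave 14 and 15 values. Probe sets whose groups do not overlap numbered 5, or 6 with quantile normalization. The cause of these changes was not tested.

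The sample numbers share no stated animal. Correlations of deviations between same-numbered samples were 0.039, 0.15 and 0.10. Those between differently numbered samples ran from -0.16 to 0.047, a range that holds the value of pair 1. The data thus gave only a weak hint of pairing, from pairs 2 and 3. Without the replicate block, 138 probe sets passed (1.02% of those tested), Thbs4 still did (adjusted p = 0.039), and the adjusted p of Kera was 0.204.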
